A study of Mus musculus with 12 samples.

Results

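Clustered histone genes were measured in sorted mouse bone marrow progenitors as the 70 rows of a gene count table whose symbols begin with Hist1h, Hist2h, Hist3h or Hist4h, out of 55450 rows in all. They comprised 6 H1, 20 H2A, 19 H2B, 12 H3 and 13 H4 genes. The cells were donor cells, negative for lineage markers and positive for the receptor Kit (the LK fraction), sorted from recipients of competitive bone marrow transplants, in which donor cells share the host with competitor cells. Each of 4 genotype labels was given to 3 of the 12 libraries. WT libraries carry neither mutation, Tet2KO libraries a Tet2 knockout, Id1KO libraries an Id1 knockout and dKO libraries both knockouts, and all 4 groups share the transplant. The labels do not give the alleles, the age of the mice or the number of mice behind a library. All libraries of a genotype carry a single sample number in their titles, so they may be repeats of 1 cell sample, and every p-value measures the spread between these libraries only.

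Histones package DNA: a pair each of H2A, H2B, H3 and H4 forms the nucleosome core, and H1, the linker histone, binds where DNA enters and leaves it. The clustered genes are replication-dependent. They are transcribed mainly in S phase at histone locus bodies, where NPAT acts under CDK2 and cyclin E, and their mRNAs end in a stem-loop in place of a poly(A) tail. SLBP binds that stem-loop and is needed for processing, translation and decay of the message. Libraries made from total RNA depleted of ribosomal RNA, as here, include such messages. Blood progenitors divide often, and histone messages are among their abundant transcripts.

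By the number in their symbols the genes belong to 4 clusters, with positions on GRCm38 (GENCODE M21 annotation). Cluster 1 on chromosome 13 held 56 of them, cluster 2 on chromosome 3 held 10, cluster 3 on chromosome 11 held 3 and cluster 4 on chromosome 6 held 1. Hist1h2al, counted in cluster 1 by its symbol, lies far from the other genes of that cluster (chr13:51202727-51203065). Of the 70, 67 are annotated as protein-coding and Hist1h2aj, Hist1h2al and Hist3h2bb-ps as pseudogenes. The 13 H4 genes all encode 1 protein of 103 residues, from 12 distinct coding sequences. The 12 H3 genes encode 3 products, the 18 coding H2A genes 9, the 18 coding H2B genes 12 and the 6 H1 genes 6. Reads can therefore match several genes, and 43 members fell into 7 groups that were at least 98% identical over at least 80% of the shorter transcript. Counts of single copies in such groups depend on how reads were assigned.

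The 3′ stem-loop was searched on the transcript strand as 16 bases: GG, any 3 bases, TT, any base, T, any base, A, any 3 bases and CC. It was found after the stop codon in 46 of 70 members, and in 46 of the 52 whose annotated transcript extends at least 30 bases past the stop. Within the last 300 bases of any annotated transcript it was present in 40% of members and in 0.882% of all 55450 genes. Many histone gene models end at or near the stop codon, so the missing members are mostly ones with no annotated sequence there. There were 8 distinct stem-loops. The commonest, in 26 members, occurred in H1, H2A, H2B and H3 genes, while 7 H4 genes carried one with a stem of another sequence. The 6 sites below show the range over classes, with the stem-loop in capitals and the flanking transcript bases in lower case.
Hist1h1e: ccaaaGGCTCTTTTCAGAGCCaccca
Hist1h2bb: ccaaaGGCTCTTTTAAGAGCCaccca
Hist1h3e: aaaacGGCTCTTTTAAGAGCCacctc
Hist1h3g: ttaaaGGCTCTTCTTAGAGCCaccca
Hist1h4m: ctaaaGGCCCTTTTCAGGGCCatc
Hist1h4j: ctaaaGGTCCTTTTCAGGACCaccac

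Promoters of 61 members were matched in RefSeq (GRCm38.p6) and searched on both strands over 300 bases, from 250 before to 50 after the start. TATAAA, the TATA box core, was present in 57.4% of the members against 15.7% of all 27025 genes in that table. CCAAT, the core of the CCAAT box, was present in 85.2% against 41.1%. By class it was in 100% of H1, H2A, H2B and H3 promoters and in 25% of H4 promoters. ATTTGCAT, the octamer read by POU-domain factors such as OCT1, was present in 23% against 1.97%, in 7 of 17 H2A and 7 of 16 H2B promoters and in none of the other classes. AAACACA, known from H1 promoters as the AC box, was in 5 of 6 H1 promoters and in 8.22% of all genes. In 0 of the 61 did matches of different motifs share a base. A match is a description of these letters and not of binding.

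Promoters of 4 genes that the results below turn on are printed for the 250 bases before the start, on the strand of the gene, with the motifs above in capitals. Hist1h4m (chr13:21811496-21811745, plus strand) is shown because its RNA was nearly missing in 1 genotype. Hist1h1e (chr13:23622559-23622808, minus strand) stands for the H1 genes, Hist1h2bg (chr13:23571150-23571399, plus strand) for H2A and H2B genes that share a divergent promoter, and Hist3h2ba (chr11:58948661-58948910, plus strand) for cluster 3.
Hist1h4m: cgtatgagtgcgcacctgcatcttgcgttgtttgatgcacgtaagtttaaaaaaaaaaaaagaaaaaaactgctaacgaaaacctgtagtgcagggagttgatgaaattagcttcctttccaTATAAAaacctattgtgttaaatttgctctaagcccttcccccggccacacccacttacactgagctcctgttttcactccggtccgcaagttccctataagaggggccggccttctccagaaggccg
Hist1h1e: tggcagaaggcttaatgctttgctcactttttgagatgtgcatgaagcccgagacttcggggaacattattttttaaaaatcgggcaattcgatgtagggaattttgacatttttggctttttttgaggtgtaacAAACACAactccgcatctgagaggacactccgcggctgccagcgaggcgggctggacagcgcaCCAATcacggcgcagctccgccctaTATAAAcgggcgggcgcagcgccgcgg
Hist1h2bg: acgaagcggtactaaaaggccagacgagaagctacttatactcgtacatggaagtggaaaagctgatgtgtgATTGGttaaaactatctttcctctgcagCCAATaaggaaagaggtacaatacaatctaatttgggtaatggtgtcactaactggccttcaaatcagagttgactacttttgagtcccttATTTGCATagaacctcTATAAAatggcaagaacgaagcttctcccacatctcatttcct
Hist3h2ba: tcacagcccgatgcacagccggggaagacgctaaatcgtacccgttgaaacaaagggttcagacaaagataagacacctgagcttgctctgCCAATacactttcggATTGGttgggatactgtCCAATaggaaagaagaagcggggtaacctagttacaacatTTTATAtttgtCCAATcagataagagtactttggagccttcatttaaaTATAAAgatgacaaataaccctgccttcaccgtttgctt

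Total estimated counts per library ran from 15706407 to 19959183, of which the 70 histone genes took between 2.09% and 2.43%. Small structural and mitochondrial RNAs took 10.5% to 10.9% of counts in WT libraries and 7.4% to 8.34% in the others. Kit averaged 335 CPM over the 12 libraries and Myb, a progenitor transcription factor, 848 CPM, while the T cell gene Cd3e had at most 1 count in any library. CPM here are estimated counts scaled to a common library total (the usual CPM) after TMM scaling. Tet2 averaged 99.3 CPM in WT and 130 in Tet2KO libraries, and Id1 1.47 CPM in WT and 3.96 in Id1KO libraries, so neither was lower in the libraries labelled as its knockout. Which exons are deleted is not given in the sources used here. Genotype names in all that follows are names of the libraries labelled so, and each direction rests on those labels.

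Of the 70 genes, 65 had enough counts to be tested. Hist1h2aa, Hist1h2ba and Hist2h3c1 had no count in any library. The gene model Gm20634 overlaps Hist2h3c1 on the same strand with 100% identity over 1825 bases, so its reads could be counted there. This was not tested. Hist1h2aj had at most 6 counts and Hist1h2al at most 4. The testis H1 gene Hist1h1t passed the filter at a mean of 0.73 CPM.

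Per kilobase of exon, the most abundant member was the H4 gene Hist1h4h at a mean of 2290 CPM per kb over the 12 libraries. In H2B, Hist1h2bb (1470 CPM per kb), Hist1h2bg (1210) and Hist1h2bk (982) led. In H2A, Hist1h2ap (1390), Hist2h2aa2 (1090) and Hist2h2aa1 (1050) led, and the last pair has identical coding sequence. In H1, Hist1h1a (1060), Hist1h1b (679) and Hist1h1c (515) led, and in H3, Hist1h3e (823), Hist1h3b (748) and Hist1h3c (723). Behind Hist1h4h the H4 order was Hist1h4n (1320) and Hist1h4f (1170). Of the tested members, Hist1h1t was lowest at 0.801 CPM per kb.

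Total histone RNA did not separate the 4 genotypes. Summed over the 70 genes it was 22300, 22100 and 23300 CPM in the WT libraries, 22700, 22000 and 22100 in Tet2KO, 22000, 23600 and 20700 in Id1KO and 23100, 21200 and 24300 in dKO. All genotypes overlapped. On the log2 scale the total differed from WT by -0.02 ± 0.028 (SE, n = 3 libraries each) in Tet2KO libraries, by -0.03 ± 0.060 in Id1KO and by 0.02 ± 0.062 in dKO. In bulk RNA fewer cells in S phase and less histone RNA per cell cannot be told apart, here or in any value below.

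Class sums overlapped between the compared genotypes except for H1 in Tet2KO and H4 in Id1KO. The summed H1 level was 3670, 3600 and 3680 CPM in WT against 3390, 3250 and 3260 in Tet2KO, and 3860, 3510 and 3880 in dKO. Tet2KO was below WT by -0.15 ± 0.022 (SE) on the log2 scale and dKO above Tet2KO by 0.18 ± 0.050, without overlap in either case. As a ratio to the summed core histones, H1 stood at 0.197, 0.194 and 0.188 in WT, at 0.175, 0.174 and 0.173 in Tet2KO, at 0.188, 0.181 and 0.192 in Id1KO, while dKO libraries were at 0.2, 0.199 and 0.19. The Tet2KO libraries had the 3 lowest ratios of the 12. The summed H4 level was 5750, 5800 and 5890 CPM in WT and 5380, 5710 and 5080 in Id1KO. Its difference of -0.11 ± 0.050 became 0.03 ± 0.051 once Hist1h4m and Hist1h4n were left out.

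**Figure D1:**
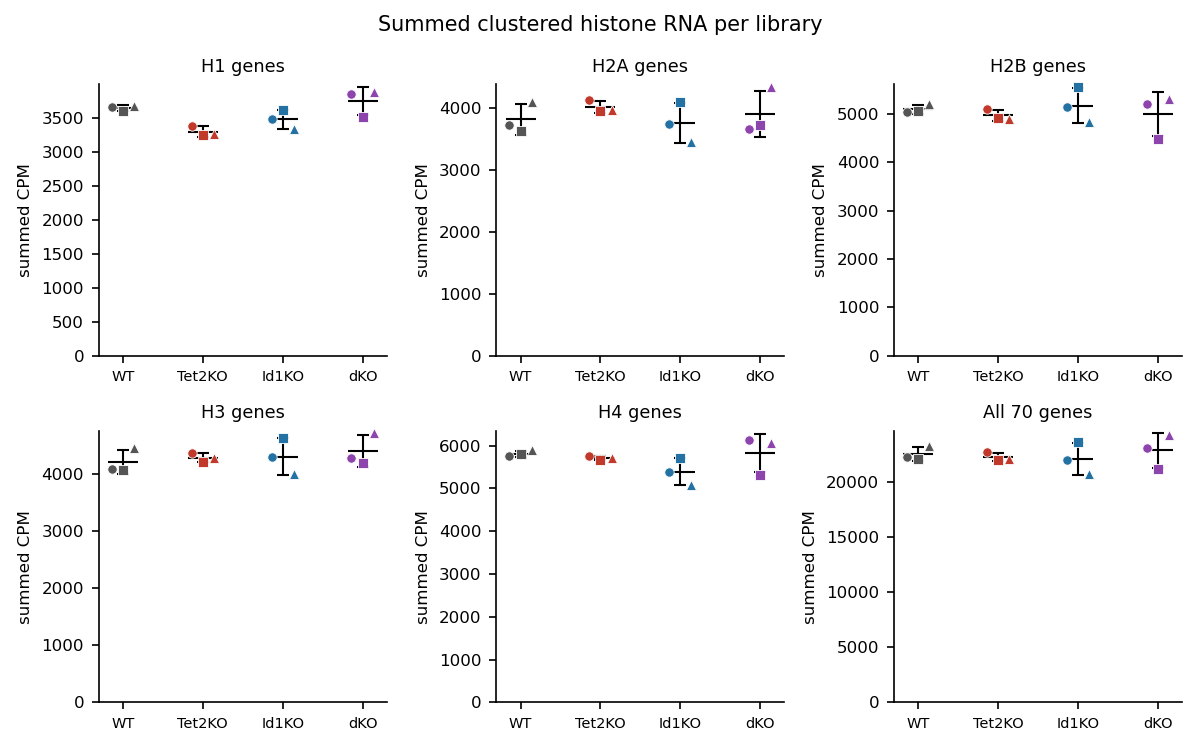
Summed CPM (y axis, from 0) of each histone class and of all 70 genes in the 12 libraries by genotype label (x axis); circles, squares and triangles are replicates 1, 2 and 3, and bars are the mean ± SD. The H1 sums of Tet2KO lie between 3250 and 3390 CPM, below all WT and dKO libraries, while the totals of the 4 genotypes overlap.

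Histone genes rose and fell together between libraries of 1 genotype. Id1KO replicate 2 was the highest of its genotype for 60 of 65 tested members and replicate 3 the lowest for 61. dKO replicate 2 was the lowest for 47 and replicate 3 the highest for 39, and WT replicate 3 was the highest for 50. Over all 14346 tested genes no library was highest or lowest of its genotype for more than 37.2%. Among 59 members above 50 CPM, the median SD between libraries of a genotype was 0.057, 0.030, 0.109 and 0.125 (log2) in WT, Tet2KO, Id1KO and dKO. Among all 4418 genes above that level it was 0.036, 0.031, 0.038 and 0.044. Histone comparisons with Id1KO or dKO libraries therefore carried more spread than those of other genes, and a call on them often depended on a single library.

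The tests used edgeR's quasi-likelihood F-test over all 14346 genes with a Benjamini-Hochberg adjusted p under 0.05. In Tet2KO against WT, 1 member was higher and 11 lower, where 16.6% of all genes tested were higher and 16.2% lower. In Id1KO against WT, 13 were higher and 7 lower (all genes, 7.26% and 7.77%). In dKO against WT, 3 were higher and 4 lower (10.2% and 8.97%). In dKO against Tet2KO, 8 were higher and 3 lower (13.1% and 13.4%). In dKO against Id1KO, 8 were higher and 15 lower (10.6% and 8.7%). The interaction subtracts the WT-to-Id1KO log2 change from the Tet2KO-to-dKO change, and it was positive for 10 members and negative for 5 (7.46% and 7.03%). Single libraries moved these counts by over 1.5 times: Tet2KO against WT had 7 calls without Tet2KO replicate 3, Id1KO against WT 13 without WT replicate 1, and dKO against Id1KO 15 without Id1KO replicate 2. Without dKO replicate 2 there were 15 in dKO against WT and 22 in dKO against Tet2KO, and without Id1KO replicate 1 the interaction had 9.

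Of the 65 members, 34 (52.3%) were called in none of the 5 pairwise comparisons, beside 47.4% of all genes tested, and 0 were called in all 5, beside 0.746% of all genes. The 5 comparisons share libraries, so their calls are not independent. The median log2 fold change of the 65 members was -0.02 in Tet2KO against WT, 0.05 in Id1KO and 0.01 in dKO against WT. For dKO it was 0.02 against Tet2KO and -0.04 against Id1KO, where the medians of all genes were within 0.01 of 0. In dKO against WT, 56 of 65 members were within 0.2 of no change. When the libraries of each genotype were summed and additive label effects were fitted, so that genotypes and not libraries were the unit, 4 members passed for the Tet2 label (3.54% of all 16003 genes in that fit) and 1 for the Id1 label (0.237%). These were Hist3h2ba, Hist1h4n, Hist1h2bp and Hist1h2ap for Tet2 and Hist1h2br for Id1, and 13 and 8 members had an unadjusted p under 0.05.

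**Figure D2:**
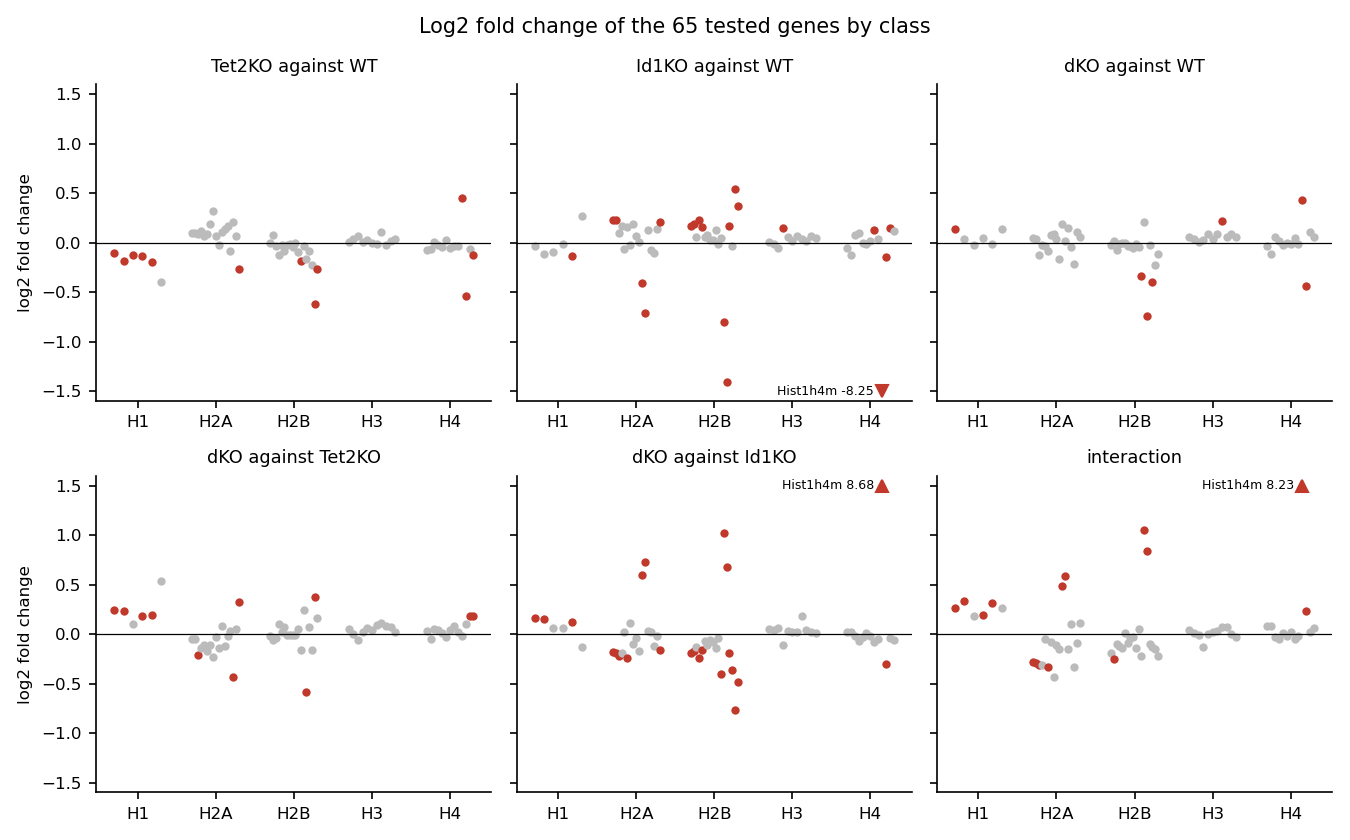
Log2 fold change (y axis) of the 65 tested members by class (x axis) in the 5 comparisons and the interaction; red points passed the adjusted threshold of 0.05, grey points did not, and triangles mark Hist1h4m, which lies outside the axis at -8.25, 8.68 and 8.23. Most members lie within 0.2 of no change, the H1 genes lie below 0 in Tet2KO against WT, and a small set of H2A, H2B and H4 genes is far from the rest in Id1KO.

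Linker histone genes were lower in Tet2KO than in WT libraries, and higher in dKO than in Tet2KO. In Tet2KO against WT 5 of 6 H1 genes were lower and none higher (all genes, 16.2% and 16.6%). In dKO against Tet2KO 4 of 6 were higher and none lower (13.1% and 13.4%). Hist1h1e was at 786, 774 and 788 CPM in WT, 691, 673 and 684 in Tet2KO, 710, 745 and 694 in Id1KO and 795, 749 and 793 in dKO. Its Tet2KO and Id1KO libraries were all below the WT libraries. It differed from WT by -0.20 ± 0.030 (SE, log2) in Tet2KO (edgeR adjusted p = 3.86e-05), by -0.13 ± 0.030 in Id1KO (0.0059), and was at 0.19 ± 0.030 in dKO against Tet2KO (8.74e-05). Hist1h1d and Hist1h1e, unlike the other H1 genes described, were named after their values were seen, to complete the class.

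Hist1h1b was at 543, 521 and 514 CPM in WT, 473, 464 and 450 in Tet2KO, 484, 505 and 473 in Id1KO and 566, 492 and 566 in dKO. It was lower by -0.19 ± 0.042 (SE) in Tet2KO against WT (adjusted p = 0.002) and higher by 0.23 ± 0.043 in dKO against Tet2KO (0.00047), with no overlap between the libraries compared. Hist1h1a was at 775, 793 and 790 CPM in WT, 745, 728 and 722 in Tet2KO, 768, 793 and 755 in Id1KO and 889, 823 and 878 in dKO. Its dKO libraries were above all others, by 0.14 ± 0.030 against WT (adjusted p = 0.00276), 0.24 ± 0.030 against Tet2KO (6.72e-06) and 0.16 ± 0.030 against Id1KO (0.00056). Its difference of -0.10 ± 0.030 in Tet2KO against WT (0.011) was not called without Tet2KO replicate 3 (0.0655) or replicate 2 (0.0529).

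Hist1h1d averaged 719, 655, 714 and 744 CPM in WT, Tet2KO, Id1KO and dKO. It was lower by -0.13 ± 0.041 (SE) in Tet2KO against WT (adjusted p = 0.0157), a call lost without Tet2KO replicate 3 (0.0858), Tet2KO replicate 2 (0.0808) or WT replicate 3 (0.0729), and higher by 0.18 ± 0.041 in dKO against Tet2KO (0.00218). Hist1h1c averaged 836, 768, 788 and 822 CPM in the same order. Its -0.12 ± 0.046 in Tet2KO against WT (adjusted p = 0.0473) was lost in 7 of the 12 fits that left out 1 library, up to 0.198 without Tet2KO replicate 2, and under RLE and upper-quartile scaling and DESeq2. Both Hist1h1e and Hist1h1b kept their calls in Tet2KO against WT in all 12 such fits. Hist1h1e overlaps the exons of Hist1h2be and Gm11398 on its strand, so part of its reads could be counted for those models.

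The interaction was positive for 4 of 6 H1 genes and negative for none (all genes, 7.46% and 7.03%). It was 0.34 ± 0.060 (SE) for Hist1h1b (edgeR adjusted p = 0.000711), 0.32 ± 0.042 for Hist1h1e (3.52e-05) and 0.27 ± 0.042 for Hist1h1a (0.000244). For Hist1h1d it was 0.19 ± 0.057 (0.0281), lost in 7 of 12 fits that left out 1 library, up to 0.0989 without dKO replicate 3.

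Erythroid and DNA synthesis genes were also lower in Tet2KO than in WT and higher in dKO than in Tet2KO. In Id1KO against WT, 2 of 19 erythroid markers were higher and none lower, and 1 of 37 DNA synthesis genes was higher and 6 lower. Of all genes, 7.26% were higher and 7.77% lower there. Of 19 erythroid markers tested, 18 were lower and none higher in Tet2KO against WT (all genes, 16.2% and 16.6%). In dKO against Tet2KO, 18 were higher and none lower (13.1% and 13.4%). The summed level of that list ran from 2000 to 2050 CPM in WT, 1200 to 1210 in Tet2KO, 2210 to 2230 in Id1KO and 2020 to 2030 in dKO. No erythroid marker in the table was at 0 throughout, and the lowest by count, Alas2, reached 13 counts. Of 37 DNA synthesis genes, 16 were lower and none higher in Tet2KO against WT. In dKO against Tet2KO, 15 were higher and none lower, beside the same shares of all genes. Their summed level ran from 7110 to 7270 CPM in WT, 6810 to 6870 in Tet2KO, 6950 to 7050 in Id1KO and 7150 to 7290 in dKO. Pcna, the sliding clamp of DNA polymerase, was at -0.11 ± 0.027 (SE) in Tet2KO against WT (edgeR adjusted p = 0.00326). The part of either list in the H1 result was not tested.

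Markers of other cell types also differed between the labels. Lymphoid markers were higher for 5 of 9 and lower for none in Tet2KO against WT (all genes, 16.6% and 16.2%). Lymphoid sums were 58.7 to 65.1 CPM in WT and 72.2 to 76.6 in Tet2KO. Megakaryocyte markers were higher for 3 of 6 and lower for none in Id1KO against WT (7.26% and 7.77%). Megakaryocyte sums were 157 to 163 CPM in WT and 222 to 236 in Id1KO. Neutrophil granule markers were higher for 7 and lower for 3 of 14 in Tet2KO against WT (16.6% and 16.2%). Their sums were 14100 to 14200 CPM in WT, 15600 to 15800 in Tet2KO, 11900 to 12900 in Id1KO and 11700 to 12900 in dKO. Mpo made up most of these sums, averaging 9910 CPM in WT, 8430 in Id1KO and 8510 in dKO. By gene, 1 was higher and 2 lower in Id1KO against WT (all genes, 7.26% and 7.77%). In dKO against WT, 4 were higher and 4 lower (10.2% and 8.97%). No marker of these lists had 0 counts throughout, but Cd3e reached at most 1, Ms4a1 at most 2 and Cd3d at most 4. Their part in the histone results was not tested.

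**Figure D3:**
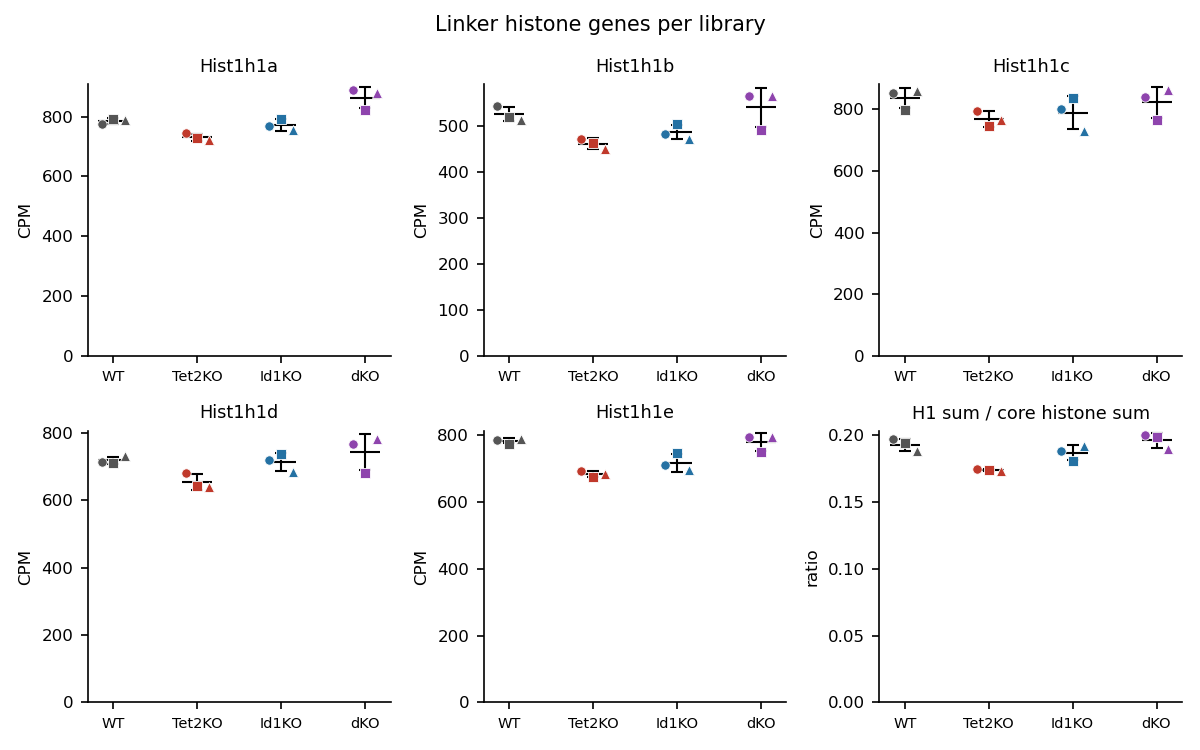
CPM (y axis, from 0) of the 5 abundant linker histone genes, and the ratio of summed H1 to summed core histones, in the 12 libraries by genotype label (x axis); symbols are replicates 1, 2 and 3, and bars are the mean ± SD. Tet2KO libraries are lowest for the H1 sum ratio at 0.173 to 0.175, and the dKO libraries of Hist1h1a, at 823 to 889 CPM, are above all others.

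Outside an inverted stretch described below, and with cluster 3 counted, H2A and H2B genes were called higher more often than lower in Id1KO. There 3 of 15 H2A and 7 of 16 H2B genes were higher than in WT and none lower (all genes, 7.26% and 7.77%). In dKO against Id1KO, 5 of 15 and 9 of 16 were lower and none higher (8.7% and 10.6%). Hist1h2ac was at 183, 183 and 201 CPM in WT, 228, 231 and 208 in Id1KO and 170, 197 and 216 in dKO. Every Id1KO library was above the WT libraries, while Id1KO and dKO overlapped. The Id1KO libraries were higher by 0.23 ± 0.057 (SE, log2) (edgeR adjusted p = 0.00842) and the dKO libraries lower than Id1KO by -0.19 ± 0.058 (0.0244), the latter lost without Id1KO replicate 1, Id1KO replicate 2 or dKO replicate 1.

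Hist1h2bf was at 153, 155 and 165 CPM in WT, 180, 196 and 177 in Id1KO and 167, 139 and 163 in dKO, without overlap of Id1KO with either. Its log2 fold changes of 0.23 ± 0.051 (SE) in Id1KO against WT (edgeR adjusted p = 0.00434) and -0.24 ± 0.051 in dKO against Id1KO (0.00222) held in all 12 fits that left out 1 library. The other calls higher in Id1KO in these classes were between 0.16 and 0.23 outside cluster 3 and came from Hist1h2ab, Hist1h2bb, Hist1h2bc, Hist1h2bg and Hist2h2bb, the last named after its values were seen. When near-identical genes were summed before the fit, neither the row of 13 H2A genes nor that of 11 H2B genes, both with the stretch included, was called, at -0.09 ± 0.063 (0.379) and -0.04 ± 0.052 (0.657) in Id1KO against WT. Among the single genes Hist1h2bb, the H2B gene highest per kilobase, was at 706, 729 and 737 CPM in WT and 799, 884 and 759 in Id1KO. Its 0.17 ± 0.049 (adjusted p = 0.024) was not called when WT replicate 1 or Id1KO replicate 2 was left out. Without Id1KO replicate 2, which was the highest library for 60 members, the calls in dKO against Id1KO went from 8 higher and 15 lower to 9 and 6. Of 24 G2 and M phase genes, 15 were higher and none lower in Id1KO against WT (all genes, 7.26% and 7.77%). In dKO against Id1KO, 6 of them were higher and none lower (10.6% and 8.7%). Their sums ran from 3740 to 3790 CPM in WT, 4000 to 4100 in Id1KO and 4190 to 4290 in dKO. Their part was not tested.

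H2A and H2B genes often share a divergent promoter, and 12 such pairs, 175 to 305 bases apart, occur among the members. Hist1h2aa and Hist1h2ba, which form such a pair, had no counts. The pair Hist1h2ac and Hist1h2bc stood at log2 fold changes of 0.23 and 0.19 in Id1KO against WT, and the pair Hist1h2ae and Hist1h2bg at 0.17 and 0.16, of which the H2A gene was not called. The pair Hist2h2ac and Hist2h2be differed, at 0.11 and -0.40 in dKO against WT. In Tet2KO against WT most measured pairs had partners of opposite sign. Hist1h2ai and Hist1h2bl were at 0.32 and -0.04 there, and Hist1h2ad and Hist1h2bf at 0.09 and -0.12. Hist1h2ac and Hist1h2bc shared a sign there, at 0.10 and 0.08.

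The members called lower in dKO also included Hist2h2be, Hist1h2bp and Hist2h2ab. Hist2h2be, an H2B gene of cluster 2, was at 9.23, 8.4 and 9.73 CPM in WT, 7.97, 7.68 and 7.65 in Tet2KO, 8.07, 10 and 8.58 in Id1KO and 7.35, 6.53 and 6.91 in dKO. Its dKO libraries were below all others, at -0.40 ± 0.102 (SE) against WT (edgeR adjusted p = 0.00906), or -0.34 (0.0511) without WT replicate 3. Hist1h2bp averaged 64.0, 56.4, 66.3 and 50.4 CPM in WT, Tet2KO, Id1KO and dKO, and was lower in dKO by -0.34 ± 0.066 against WT (adjusted p = 0.000861) and by -0.40 ± 0.066 against Id1KO (2e-04). Hist2h2ab was at 12.8, 11.2 and 13 CPM in Tet2KO and 8.05, 9.76 and 9.58 in dKO, a log2 fold change of -0.43 ± 0.104 (adjusted p = 0.00408).

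The 3 genes of cluster 3 moved in one direction in each comparison in which they were called. They were all lower in Tet2KO than in WT, all higher in Id1KO than in WT and all lower in dKO than in Id1KO. Of all genes, 16.2%, 7.26% and 8.7% were called in these directions. Hist3h2ba, an H2B gene (chr11:58948920-58949533), was at 9.68, 10.6 and 11.9 CPM in WT, 6.73, 6.73 and 7.45 in Tet2KO, 15.5, 17.4 and 13.6 in Id1KO and 8.31, 9.06 and 9.94 in dKO. The 3 comparisons just named had no overlap between libraries. It was lower than WT by -0.62 ± 0.111 (SE, log2) in Tet2KO (edgeR adjusted p = 0.000237), higher by 0.54 ± 0.097 in Id1KO (0.000801) and at -0.77 ± 0.102 in dKO against Id1KO (1.6e-05). It was one of the 4 members that still passed for the Tet2 label with summed libraries.

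Hist3h2a, the H2A gene of the cluster (chr11:58954685-58956830), was at 214, 220 and 220 CPM in WT, 187, 177 and 178 in Tet2KO, 250, 265 and 244 in Id1KO and 238, 207 and 236 in dKO. Tet2KO libraries were the lowest and Id1KO libraries the highest, with no overlap with any other genotype. Against WT it was at -0.27 ± 0.043 (SE, log2) in Tet2KO (edgeR adjusted p = 6.44e-05) and 0.21 ± 0.041 in Id1KO (0.00133), and at 0.33 ± 0.043 in dKO against Tet2KO (1.33e-05). Its exons overlap Trim17 on the same strand. The pseudogene Hist3h2bb-ps averaged 18.6, 15.5, 24.1 and 17.2 CPM in WT, Tet2KO, Id1KO and dKO, at 0.37 ± 0.084 in Id1KO against WT (adjusted p = 0.00469) and -0.48 ± 0.088 in dKO against Id1KO (0.00048). In Tet2KO against WT its -0.27 ± 0.092 (0.0306) was lost in 4 of 12 fits that left out 1 library, up to 0.134 without Tet2KO replicate 3. The erythroid and megakaryocyte sums given above differ between the same labels, and their part in this pattern was not tested.

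**Figure D4:**
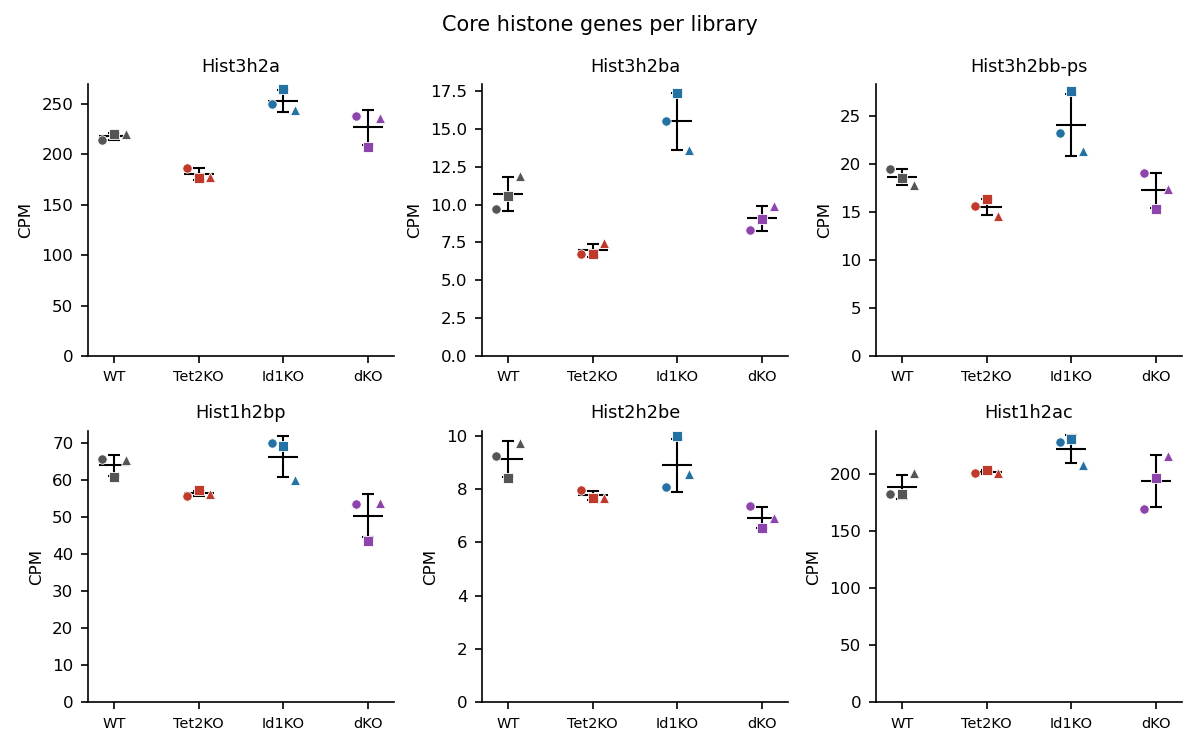
CPM (y axis, from 0) of the 3 genes of cluster 3 (Hist3h2a, Hist3h2ba, Hist3h2bb-ps) and of Hist1h2bp, Hist2h2be and Hist1h2ac in the 12 libraries by genotype label (x axis); symbols are replicates 1, 2 and 3, and bars are the mean ± SD. The genes of cluster 3 are lowest in Tet2KO and highest in Id1KO by mean, with Hist3h2ba at 6.73 to 7.45 and 13.6 to 17.4 CPM.

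Of 11 H3 genes tested, edgeR called 1 higher in Id1KO and another in dKO, both against WT. Each is 9.09% of the class, beside 7.26% and 10.2% of all genes higher in these 2 contrasts. No H3 gene was called in the remaining contrasts. All 11 were within 0.2 of no change in 5 of the 6 contrasts, the exception being dKO against WT. Hist1h3e, the H3 gene highest per kilobase, was at 652, 647 and 700 CPM in WT, 689, 667 and 685 in Tet2KO, 694, 753 and 643 in Id1KO and 720, 645 and 767 in dKO, with all genotypes overlapping. Hist1h3h, called in dKO against WT at 0.22 ± 0.063 (SE, edgeR adjusted p = 0.0201), was at 148, 136 and 152 CPM in WT and 154, 164 and 187 in dKO. It was not called without dKO replicate 3 (0.13, adjusted p = 0.146) or WT replicate 2 (0.17, 0.102). The gene called in Id1KO was Hist1h3d, at 0.15 ± 0.048 (0.0467), lost in 5 of 12 such fits, up to 0.212 without Id1KO replicate 2.

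H4 genes outside the inverted stretch also changed little. Against WT, 1 of 11 was lower in Tet2KO (all genes, 16.2%), 2 higher in Id1KO (7.26%) and none called in dKO. Against the single knockouts, dKO had 2 higher than Tet2KO (Hist2h4 and Hist4h4, all genes 13.1%) and none called against Id1KO. The 2 higher in Id1KO were Hist1h4j and Hist2h4, named after their values were seen, at 0.13 and 0.15, and both calls (edgeR adjusted p = 0.0417 and 0.0496) were lost without Id1KO replicate 2 (0.221 and 0.254), among other libraries. Hist1h4h was at 1040, 1070 and 1100 CPM in WT, 1080, 1090 and 1100 in Tet2KO, 1060, 1140 and 982 in Id1KO and 1120, 969 and 1130 in dKO, and the genotypes overlapped. Hist4h4, the only gene of cluster 4 and named after its values were seen, averaged 243, 223, 264 and 253 CPM in WT, Tet2KO, Id1KO and dKO. It was higher in dKO than in Tet2KO by 0.18 ± 0.045 (SE, edgeR adjusted p = 0.00551). Its -0.12 ± 0.045 in Tet2KO against WT (0.0489) was lost in 9 of 12 fits that left out 1 library, up to 0.259 without WT replicate 3.

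In Id1KO libraries, 6 neighbouring genes of cluster 1 were lower than in WT, 5 of them at -0.41 or below on the log2 scale. The lowest member elsewhere was at -0.13. They lie within 30919 bases (chr13:21806612-21837530) in an inverted arrangement, in the order Hist1h2bq, Hist1h2ao and Hist1h4m, then their copies in reverse, Hist1h4n, Hist1h2ap and Hist1h2br. The H4 copies are 19619 bases apart, and the other 2 genes annotated inside are miRNA models. Copies lie on opposite strands, and the bases between the genes were not compared. Each pair has identical coding sequence, and the promoters of the H2B pair have 0 differences over 250 bases. Those of the H4 pair also have 0 over the bases compared. The transcripts of Hist1h4m and Hist1h4n differ at 1 of 402 shared bases, G36A counted from the transcript start with the base of Hist1h4m first. The annotated transcript of Hist1h4n is longer, at 430 bases against 402, with 80 against 52 bases after the stop codon. Reads that reach its added end match only that model. The windows from position 25 to 49 are printed because within the shared bases assignment of reads can rest on the capital base alone. This base lies just before the start codon.
Hist1h4m: gttttgtcttcGtcatgtctggtcg
Hist1h4n: gttttgtcttcAtcatgtctggtcg

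Hist1h4m (chr13:21811746-21812147) was at 459, 479 and 494 CPM in WT, 663, 649 and 646 in Tet2KO, 2.04, 1.98 and 0.633 in Id1KO and 683, 581 and 669 in dKO. The Id1KO libraries held 37, 38 and 12 counts, against at least 8850 in every other library. Hist1h4n (chr13:21831767-21832196) was at 682, 688 and 669 CPM in WT, 479, 450 and 476 in Tet2KO, 621, 650 and 583 in Id1KO and 522, 467 and 514 in dKO. Hist1h4m had log2 fold changes of -8.25 ± 0.112 (SE) in Id1KO against WT (edgeR adjusted p = 2.37e-21) and 8.68 ± 0.109 in dKO against Id1KO (5.93e-22). Its share of the pair's counts was 40.2% to 42.5% in WT, 57.6% to 59.1% in Tet2KO, 0.109% to 0.327% in Id1KO and 55.4% to 56.7% in dKO.

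The split between the H4 copies thus changed in Tet2KO and dKO while their sum did not pass the test. Hist1h4m was higher than WT by 0.45 ± 0.053 (SE, edgeR adjusted p = 1.59e-06) in Tet2KO and Hist1h4n lower by -0.54 ± 0.040 (4.07e-09). In dKO they were at 0.43 ± 0.053 (5.78e-06) and -0.44 ± 0.040 (1.32e-07) against WT. Fitted as 1 row, the pair was at 1140, 1170 and 1160 CPM in WT, 1140, 1100 and 1120 in Tet2KO, 624, 654 and 584 in Id1KO and 1210, 1050 and 1180 in dKO. The summed pair differed from WT by -0.04 ± 0.042 in Tet2KO (0.493), -0.01 ± 0.042 in dKO (0.88) and -0.90 ± 0.043 in Id1KO (1.16e-11). Id1KO libraries were therefore below all others for the sum of the copies, which does not depend on the split.

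The other pairs of the stretch showed the same direction in Id1KO, but their sums can still depend on read assignment. Their genes belong to the near-identical rows of 11 H2B and 13 H2A genes, while the H4 pair has no further member in its group. In Id1KO against WT those rows were at -0.04 ± 0.052 (SE, edgeR adjusted p = 0.657) and -0.09 ± 0.063 (0.379). Outside the stretch the H2B and H2A sums averaged 4500 and 3040 CPM in WT and 4880 and 3280 in Id1KO, with overlap. Hist1h2bq and Hist1h2br together were at 582, 568 and 611 CPM in WT, 576, 551 and 548 in Tet2KO, 297, 331 and 259 in Id1KO and 614, 469 and 611 in dKO. Hist1h2ao and Hist1h2ap together were at 766, 734 and 838 CPM in WT, 871, 854 and 854 in Tet2KO, 478, 535 and 448 in Id1KO and 734, 769 and 897 in dKO. The Id1KO libraries did not overlap any other genotype in either sum. Against WT the first sum was at -0.99 ± 0.079 (SE, edgeR adjusted p = 2.4e-08), or 0.504-fold, and the second at -0.68 ± 0.063 (2.37e-07), or 0.625-fold, beside 0.537-fold for the H4 pair. In Tet2KO and dKO against WT none of the 3 sums passed the test, although the H2A pair of Tet2KO lay above WT without overlap, at 0.14 ± 0.062 (0.0851).

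Hist1h2bq took between 59.8% and 79.7% of the counts of the H2B pair over the 12 libraries, and Hist1h2ao between 7.12% and 10.4% of the H2A pair. Within the pairs, all 6 single genes were called lower in Id1KO against WT (all genes, 7.77%). Hist1h2br was at 175, 213 and 240 CPM in WT, 157, 184 and 220 in Tet2KO, 83.9, 73.5 and 78.2 in Id1KO and 125, 122 and 130 in dKO. It was also lower in dKO than in WT, at -0.74 ± 0.097 (SE, edgeR adjusted p = 1.47e-05), while its partner Hist1h2bq was at 408, 355 and 373 CPM in WT and 489, 347 and 483 in dKO, and their sum differed by -0.06 ± 0.076 (0.673). For Hist1h4n the difference in Id1KO was -0.14 ± 0.040 (0.0241), lost in 4 of 12 fits that left out 1 library, up to 0.157 without Id1KO replicate 3. For Hist1h2ao it was -0.41 ± 0.107 (0.0138), lost without WT replicate 3 (0.105) or Id1KO replicate 3 (0.0889).

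The members on either side of the stretch did not pass the test in Id1KO against WT. Hist1h2bp, 17398 bases before it, was at a log2 fold change of 0.05 and Hist1h2ah, 197633 bases after it, at -0.02. The interaction was positive for all 6 genes of the stretch (all genes, 7.46%). Summed over the 6 genes the level was 2490, 2470 and 2620 CPM in WT, 2590, 2500 and 2520 in Tet2KO, 1400, 1520 and 1290 in Id1KO and 2550, 2280 and 2690 in dKO. The rest of the histone genes together were at 19800, 19700 and 20700 CPM in WT and 20600, 22100 and 19400 in Id1KO, a difference of 0.04 ± 0.059 on the log2 scale.

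**Figure D5:**
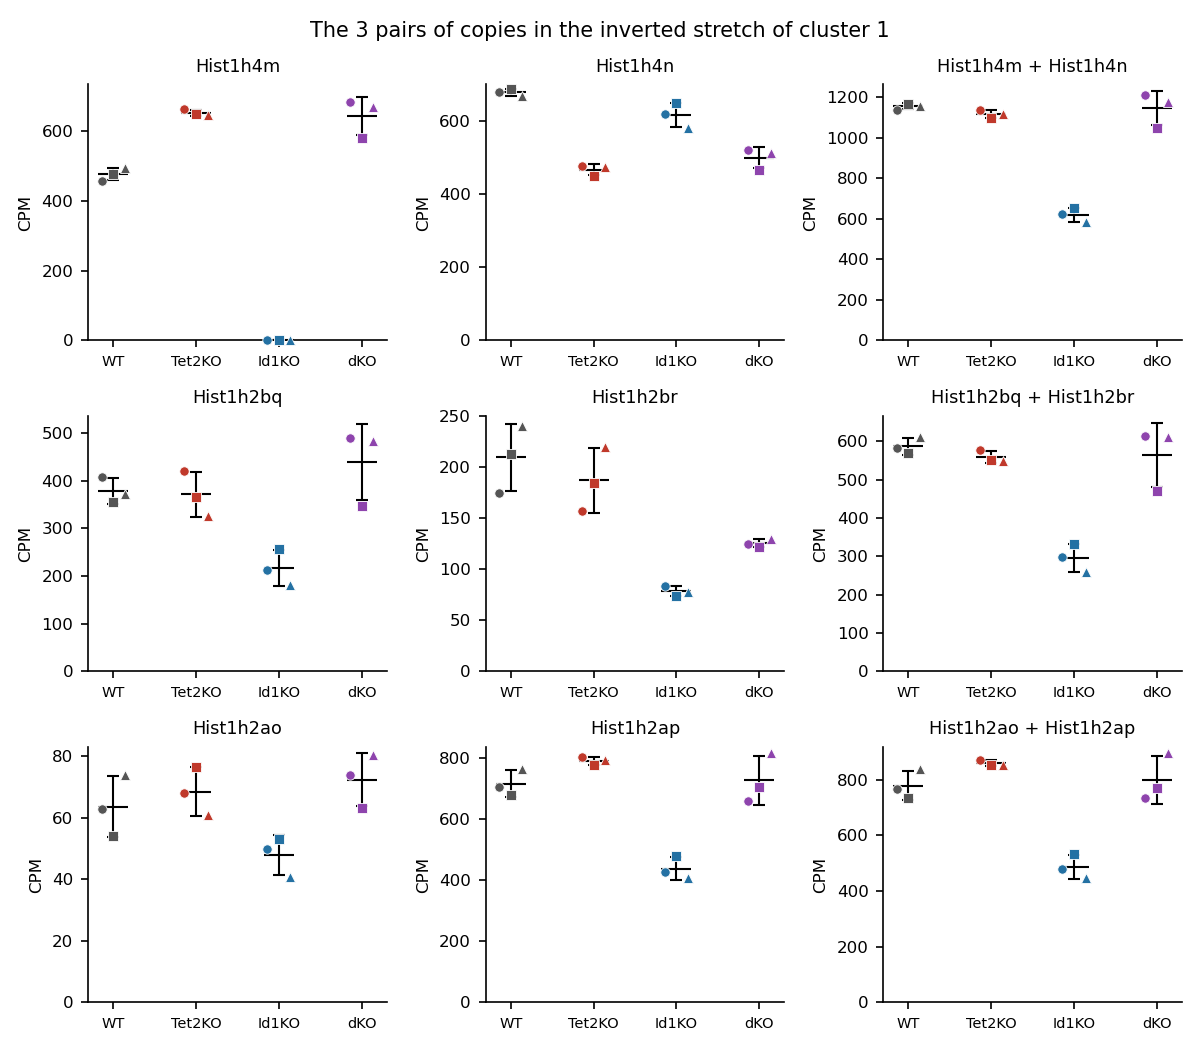
CPM (y axis, from 0) of the 6 genes of the inverted stretch, 1 pair per row, and of each summed pair (right column), in the 12 libraries by genotype label (x axis); symbols are replicates 1, 2 and 3, and bars are the mean ± SD. Hist1h4m is near 0 only in Id1KO, and the 3 Id1KO libraries are below all others for each summed pair, at 584 to 654, 259 to 331 and 448 to 535 CPM.

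Genes that act on histone messages were read from lists chosen with earlier results of these data known. Of 7 transcription genes, 2 were higher and 1 lower in Tet2KO against WT (all genes, 16.6% and 16.2%). In Id1KO against WT, 3 were higher and none lower (7.26% and 7.77%). Ccne1, encoding cyclin E1, averaged 40.1, 29.3, 44.7 and 42.3 CPM in WT, Tet2KO, Id1KO and dKO, at -0.45 ± 0.050 (SE) in Tet2KO against WT (edgeR adjusted p = 8.61e-07) and 0.53 ± 0.051 in dKO against Tet2KO (2.32e-07). Ccne2, encoding cyclin E2, averaged 45.4, 44.6, 59.9 and 48.1 CPM, at 0.40 ± 0.057 in Id1KO against WT (6.39e-05). Npat, the organiser of histone locus bodies, was between 70.7 and 75.4 CPM by mean and was not called in the 6 contrasts.

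Of 11 genes of 3′ end processing and export, 5 were lower and 1 higher in Tet2KO against WT (all genes, 16.2% and 16.6%). In dKO against Tet2KO, 6 were higher and none lower (13.1% and 13.4%). Slbp, the stem-loop binding protein, averaged 157, 143, 168 and 162 CPM in the same order, at -0.13 ± 0.030 (SE) in Tet2KO against WT (edgeR adjusted p = 0.00271) and 0.18 ± 0.031 in dKO against Tet2KO (0.00018). Slbp and Npat were named for their roles, outside the naming rule. Ncbp1, the large subunit of the nuclear cap-binding complex, was at -0.22 ± 0.031 (2.37e-05) and 0.22 ± 0.032 (4.22e-05) in the same comparisons. Among 5 decay genes, Tut4, a terminal uridylyltransferase, was higher in Tet2KO than in WT at 0.21 ± 0.040 (0.000352), and the other 4 did not pass the test there.

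Of 24 chaperone and assembly genes, 7 were lower and 2 higher in Tet2KO against WT (all genes, 16.2% and 16.6%). In dKO against Tet2KO, 7 were higher and 1 lower (13.1% and 13.4%). Asf1a, which hands H3 and H4 to assembly factors, was at -0.18 ± 0.055 (SE) in Tet2KO against WT (edgeR adjusted p = 0.0177). Hjurp, the chaperone of the centromeric H3 variant, was at 0.30 ± 0.024 in Id1KO against WT (2.79e-08). Of 11 replication-independent variants, 5 were lower and 1 higher in Tet2KO against WT. In dKO against WT none was higher and 4 were lower (all genes, 10.2% and 8.97%). H3f3b, encoding H3.3, averaged 919, 767, 952 and 907 CPM, at -0.26 ± 0.023 in Tet2KO against WT (4.45e-08). H1f0, the linker variant of resting cells, averaged 37.7, 33.2, 30.1 and 28.0 CPM and was lower than WT in all 3 other genotypes, by up to -0.43 ± 0.050 in dKO (3.22e-06). H2afy2, a macroH2A gene, averaged 4.29 CPM in WT and 1.97 in dKO, at -1.13 ± 0.180 (0.000129).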

How the data were processed

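The authors deposited 1 table of estimated counts per gene for 12 libraries, made from aligned reads and not normalized, per the file headers and values. Of all genes 8.25% held a value that is not whole. STAR, RSEM and mm10 are named in the submitters' processing notes, without versions, and the strand setting is not given in the sources used here. RNA came from the RNeasy Micro kit and an Illumina stranded total RNA kit with ribosomal depletion, per the labels' protocols. RSEM divides reads that match several genes by a model, so single copies of near-identical genes carry an error that the counts do not show.

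Estimated counts were rounded, and 14346 genes were kept by filterByExpr with a minimum count of 10. All 12 libraries were scaled by TMM and fitted together in edgeR 4.0.16 (R 4.3.3, limma 3.58.1). Two-sided quasi-likelihood F-tests were adjusted by Benjamini-Hochberg over those genes, at a threshold of 0.05. Class sums are CPM of all members, given with the spread between libraries and no test. Alternatives were 4 other scalings, DESeq2 1.42.0, 2 other filters, fits on the compared libraries only, a replicate block, each library left out, a threshold of 0.01, near-identical groups summed, and libraries summed per genotype. Summing copies of identical coding sequence was added after the data were seen. One scaling left out 6121 mitochondrial and small RNA genes.

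Gene positions came from GENCODE M21, to which all 55450 identifiers matched, and promoters from RefSeq (GRCm38.p6). Similarity was found with blast 2.17.0, and scripts ran in Python 3.11.15 with matplotlib 3.10.9. Members and gene lists were chosen with earlier results of these data known. Named genes were Tet2 and Id1, the 3 members of each class highest per kilobase, the 3 highest and 3 lowest members called in each contrast, members near-identical to those, and from each other list its 2 most abundant genes and its largest call per contrast. Zcchc6 and Zcchc11 were found as Tut7 and Tut4, and 1 listed erythroid gene was not matched. The tests were tried on simulated data. All 12 pairs of libraries within a genotype differed by more than sampling noise, with a chi-square per gene of 1.52 to 5.35, and were kept apart.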

Additional observations from a re-analysis of the deposited data

Results flagged for a closer look

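For 15 members the effect of the Id1KO label differed between libraries with and without the Tet2KO label, by the interaction term of the edgeR quasi-likelihood fit at an adjusted p under 0.05. Each value is the Tet2KO-to-dKO log2 change with the WT-to-Id1KO change subtracted. In the inverted stretch of cluster 1 they were 8.23 for Hist1h4m, 1.05 for Hist1h2bq, 0.84 for Hist1h2br, 0.59 for Hist1h2ap, 0.49 for Hist1h2ao and 0.23 for Hist1h4n. Fitted as sums of identical copies, the H4 pair stood at 0.93 ± 0.060 (SE, adjusted p = 1.12e-09), the H2B pair at 1.01 ± 0.110 (2.58e-06) and the H2A pair at 0.57 ± 0.088 (0.000168). With near-identical groups summed, the rows that hold the H2B and H2A pairs were at 0.04 ± 0.073 (adjusted p = 0.781) and -0.01 ± 0.089 (0.937). The interaction of Hist1h2ao alone did not hold in 8 of 12 fits with 1 library removed. The weakest was at an adjusted p of 0.109 with WT replicate 3 removed.

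Among linker histone genes they were 0.34 for Hist1h1b, 0.32 for Hist1h1e, 0.27 for Hist1h1a and 0.19 for Hist1h1d. Negative values were -0.25 for Hist1h2bc, -0.28 for Hist1h2ab, -0.29 for Hist1h2ac, -0.31 for Hist1h2ad and -0.33 for Hist1h2ag. DESeq2 called none of these 5, and each was lost when 1 or more single libraries were left out.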

How the results depend on the processing

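Counts of members called moved by more than 1.5 times in these alternatives, set against 12 in Tet2KO against WT, 20 in Id1KO against WT, 7 in dKO against WT, 11 in dKO against Tet2KO, 23 in dKO against Id1KO and 15 in the interaction. Without a filter they were 25, 31, 15 and 23 in the first 4 and 23 in the interaction. At a threshold of 0.01 they were 6 in Tet2KO against WT, 11 in Id1KO against WT, 13 in dKO against Id1KO and 8 in the interaction. With near-identical groups summed they were 8 in Id1KO against WT, 2 in dKO against WT, 10 in dKO against Id1KO and 5 in the interaction, and with identical copies summed 4 in dKO against WT, where fewer rows were tested. DESeq2 gave 15 in dKO against Id1KO and 8 in the interaction, and the compared libraries alone gave 21 in Tet2KO against WT. With libraries summed per genotype they were 4 for the Tet2 label (Tet2KO against WT, dKO against Id1KO) and 1 for the Id1 label (Id1KO against WT, dKO against Tet2KO). That fit gives each label 1 additive effect, shared by its 2 contrasts, and estimates neither contrast alone. Opposite signs of the 2 contrasts in the main fit were not limited to H1 genes, as in Hist1h2br at -0.16 and 0.68 for the Tet2 label. For 3 members with opposite signs, the additive effect also differed in sign from a contrast called in the main fit. For the Tet2 label the 2 contrasts were -0.10 and 0.16 in Hist1h1a, -0.20 and 0.12 in Hist1h1e and -0.19 and 0.15 in Hist1h1b. For the Id1 label they were -0.13 and 0.19 in Hist1h1e. The additive effects, none of which passed, were 0.03, -0.04 and -0.02 for Tet2 and 0.03 for Id1. Each therefore differed in sign from 1 of its contrasts. Why the counts moved was not tested.

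With 1 library left out, counts ran from 7 (without Tet2KO replicate 3) to 14 in Tet2KO against WT, 13 (without WT replicate 1) to 25 in Id1KO against WT, 6 to 15 (without dKO replicate 2) in dKO against WT, 8 to 22 (without dKO replicate 2) in dKO against Tet2KO, 15 (without Id1KO replicate 2) to 26 in dKO against Id1KO and 9 (without Id1KO replicate 1) to 19 in the interaction. Of the 12, 20, 7, 11, 23 and 15 calls, 6, 11, 5, 8, 13 and 8 held in all 12 such fits. Total and class sums moved by less than the spread between libraries in all alternatives run on them. Over genes of all kinds, same-numbered libraries had deviations correlated over 0.1 in 2 of 18 pairs between genotypes, from -0.37 to 0.12. By those genes the numbers do not pair the libraries. Over histone genes alone, same-numbered libraries ran from -0.5 (WT and Id1KO, replicate 1) to 0.78 (WT and dKO, replicate 3). Differently numbered ones ran from -0.84 (WT replicate 3, dKO replicate 1) to 0.51 (WT replicate 3, dKO replicate 2). With the replicate block the counts were 10, 17, 7, 11, 22 and 14. The replicate block ended 7 calls of single members, with adjusted p from 0.0502 (Hist1h2ab, interaction) to 0.0698 (Hist1h3d, Id1KO against WT). Depth limits the members with few counts, such as Hist1h2aj and Hist1h2al, and read assignment limits single copies of near-identical genes.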
